A study of Mus with 15 samples.

Results

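The thermogenic adipocyte genes described here are Ucp1, Cidea, Cox8b, Cox7a1, Elovl3, Dio2, Prdm16, Ppargc1a and Ppargc1b, taken by name from the 55471 genes of a mouse fat graft RNA sequencing series. All 9 members were found, and all 9 were among the 16051 genes that passed the filter on low counts. The series holds 15 libraries of adipose tissue from wild type C57BL/6 mice aged 7 weeks, with 5 of control tissue, 5 of fat grafts at day 3 and 5 of fat grafts at day 7. No transgene, deletion or drug is named for any group, and the fat depot, the recipient and the number of animals are not given in the sources used here. P-values therefore measure the spread between these libraries, which may be technical in part. Levels are given as CPM, the counts of a gene scaled to a common library size, or as the deposited TPM, which are also scaled by transcript length, where genes are compared with each other. Changes are log2 fold changes ± SE from limma-voom with p-values adjusted by Benjamini-Hochberg over the 16051 tested genes. Genes with an adjusted p under 0.05 are said to be called.

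Brown and beige adipocytes oxidise fat to make heat. Noradrenaline acts on beta-adrenergic receptors, cyclic AMP rises, fatty acids are released, and the uncoupling protein UCP1 lets protons return across the inner mitochondrial membrane without making ATP. The transcriptional partners PRDM16 and the PGC-1 coactivators turn on this program and mitochondrial biogenesis, and type 2 deiodinase makes active thyroid hormone inside the cell. White fat depots of mice can hold cells of this kind in varying number, and Ucp1 transcripts in such tissue are known to vary between animals.

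Library totals were 17.1 to 32 M counts. Adipocyte markers (10 genes, summed) stood at 17190 to 51380 CPM in the controls, 2275 to 8544 CPM in the day 3 grafts and 1134 to 2520 CPM in the day 7 grafts, with none of the 10 at 0 in any library, and macrophage markers (8 genes) at 1189 to 3320, 4385 to 10390 and 8379 to 12010 CPM. Skeletal muscle markers (10 genes), which matter here because Cox8b, Cox7a1 and Ppargc1a are also muscle genes, summed to 3686 CPM in control 2 and 34.8 to 409 CPM in the other controls. They summed to 409.7 CPM in day 3 graft 1 and 2.53 to 6.55 CPM in the other day 3 grafts, where Myh2 was at 0 throughout. At day 7 the sum was 318 CPM in graft 3, 171 CPM in graft 1 and 1.73 to 17.4 CPM in the other grafts. Transcripts of the mitochondrial genome took 9.01 to 14.9% of counts in the controls and 2.17 to 4.02% in the grafts.

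In the day 3 grafts 8 of the 9 members were lower than in the controls and none was higher, and the median log2 change of the 9 was -4.56. At day 7 the same count held, with a median of -5.26. These counts and medians are a description, since Elovl3 and Ucp1 passed the filter only with the help of the controls, in which they were high (0 and 3 of the 10 grafts reached the threshold), and 7 members were called in each comparison when the filter was raised to 1 CPM, which left Elovl3 untested. The calls themselves were common in these comparisons, since 60.3% of all tested genes were called at day 3 (30.1% higher and 30.2% lower) and 60.7% at day 7 (32.3% higher and 28.4% lower). The median change of all tested genes was -0.01 at day 3 and 0.03 at day 7, and 2.39% and 2.58% of them lay below a log2 change of -4. Of the members, Ucp1, Cidea, Cox8b, Elovl3 and Ppargc1a lay below -4 in both comparisons. Dio2 was the member that was not called in either comparison. Between day 7 and day 3, where 4.88% of tested genes were called (3.18% higher and 1.71% lower), no member passed the limma test (2 had an unadjusted p under 0.05), and the median was -0.22. Both comparisons with the controls use the same 5 control libraries. In bulk tissue, fewer cells of a type and less RNA per cell cannot be told apart.

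**Figure D1:**
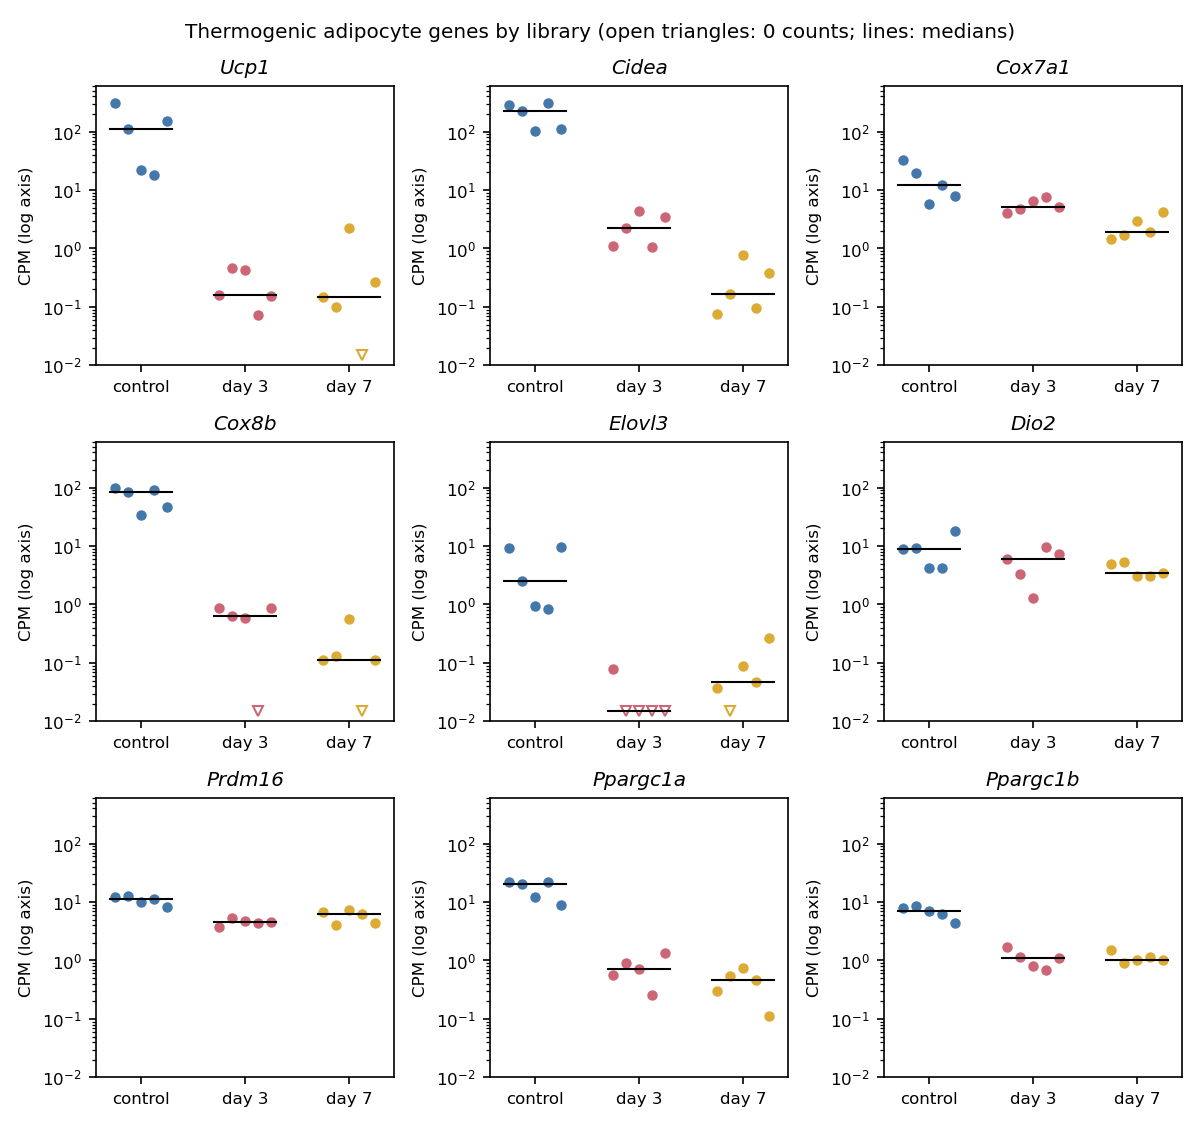
Scaled CPM of each of the 9 genes in every library on a log axis, with 5 control, 5 day 3 and 5 day 7 libraries per panel, a line at each group's median and open triangles for libraries with 0 counts. Dio2 is the panel in which both graft groups overlap the controls, and the Ucp1 controls spread from 17.9 to 313 CPM.

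Ucp1 (ENSMUSG00000031710, mm10 chromosome 8, 83290352 to 83298452), the uncoupling protein itself, was at 313, 111, 21.9, 17.9 and 153 CPM in controls 1 to 5. The day 3 grafts held 0.160, 0.463, 0.422, 0.072 and 0.152 CPM, which was 2 to 13 counts each. The day 7 grafts held 0.15, 0.1, 2.25, 0 and 0.263 CPM. Every graft lay below every control. The graft without a count, day 7 graft 4, allows up to 0.142 CPM by the rule of 3 counts, which covers counting error only. Summed over libraries Ucp1 had 12024 control counts, 33 from the day 3 grafts and 89 from the day 7 grafts, and 75 of the last came from graft 3. The control level was 461 times that of the day 3 grafts (exact 95% counting interval 328 to 670) and 180 times that of the day 7 grafts (146 to 225). Such counting intervals, here and below, pool the counts of a group and do not cover the spread between libraries. Without day 7 graft 3, left out after its counts were seen, 14 day 7 counts remained, and the control level was 868 times that of the other 4 grafts (517 to 1588). The fitted changes were -8.35 ± 1.84 (limma adjusted p = 0.00127) and -8.41 ± 1.88 (adjusted p = 0.00136), with the widest standard errors of the 9 members. Since 3 grafts reached the filter threshold, Ucp1 passed the filter only with the help of its controls, where it was high. Its calls are therefore given only as a description.

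The controls differed among themselves most in Ucp1. Its highest control was 17.4 times its lowest, against a median of 2.02 times over all tested genes. Elovl3 had a control range of 11.2 times, Cox7a1 of 5.74 times and Dio2 of 4.26 times. Cidea (3.06 times), Cox8b (2.94), Ppargc1a (2.46), Ppargc1b (1.95) and Prdm16 (1.5) varied less. By CPM control 4, with a low Ucp1 level and the lowest scaling factor (0.746), had the highest Cidea level of the controls. In TPM control 1 was highest in both, at 253 for Ucp1 and 374 for Cidea. Control 5, with the next highest Ucp1 level (134 TPM), was lowest in Cidea (157 TPM). These markers thus did not rank the controls alike on either scale.

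Cidea (ENSMUSG00000024526, mm10 chromosome 18, 67343604 to 67367785), a lipid droplet protein of thermogenic fat, was at 289, 223, 101, 307 and 112 CPM in controls 1 to 5. It was at 1.12, 2.21, 4.35, 1.04 and 3.46 CPM in the day 3 grafts. At day 7 it was at 0.075, 0.167, 0.78, 0.094 and 0.376 CPM. The groups followed each other without overlap, with each day 7 graft below each day 3 graft and each day 3 graft below each control; 40.4%, 42.5% and 7.89% of all tested genes had such a separation at day 3, at day 7 and between the grafts. The log2 change of Cidea was -6.48 ± 0.51 at day 3 (limma adjusted p = 3.06e-07) and -9.61 ± 0.86 at day 7 (adjusted p = 5.38e-07). Between day 7 and day 3 its change of -3.13 ± 0.95 did not pass (adjusted p = 0.0716), and it passed when only the graft libraries were fitted (-3.14, adjusted p = 0.0221). An antisense RNA that overlaps Cidea, B430212C06Rik, had 311 counts in the controls and 20 in the grafts, against 21251 and 358 of Cidea, and the sources used here do not say whether counting used strand.

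Cox8b (ENSMUSG00000025488, mm10 chromosome 7, 140898945 to 140900446) is the form of cytochrome oxidase subunit 8 found in brown fat, heart and skeletal muscle. It was at 98.9, 82.3, 33.6, 91.8 and 46.6 CPM in controls 1 to 5. In the day 3 grafts it was at 0.881, 0.641, 0.591, 0 and 0.876 CPM, and in the day 7 grafts at 0.112, 0.133, 0.57, 0 and 0.113 CPM. All grafts were far below all controls, and the empty libraries, graft 4 at each time, allow up to 0.108 and 0.142 CPM. The changes were -7.54 ± 0.90 (limma adjusted p = 7.81e-06) and -8.88 ± 1.13 (adjusted p = 1.13e-05). Control 1, with the lowest muscle marker sum of the controls, had the highest Cox8b level, whereas in each graft group the library with the highest muscle sum, day 3 graft 1 and day 7 graft 3, also had the highest Cox8b level. At day 3 this lead was small, since graft 5 with a muscle sum of 6.55 CPM held 0.876 CPM of Cox8b. The part of muscle RNA in the graft levels was not tested. Without control 2 and day 3 graft 1, the libraries with the most muscle marker RNA in their groups, the Cox8b changes were -7.80 (limma adjusted p = 9.22e-05) and -8.80 (adjusted p = 4.35e-05). These 2 are called the high-muscle libraries below. Every day 7 graft stayed in, with graft 3 at a muscle sum of 318 CPM, and so did control 5 at 409 CPM.

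Cox7a1 (ENSMUSG00000074218, mm10 chromosome 7, 30184144 to 30186078), the heart, muscle and brown fat form of subunit 7a, changed less than Cox8b. It was at 32.9, 19.4, 5.74, 12.1 and 7.91 CPM in controls 1 to 5. The day 3 grafts held 4.04, 4.77, 6.50, 7.49 and 5.14 CPM and overlapped the controls. The day 7 grafts held 1.46, 1.70, 2.97, 1.89 and 4.14 CPM, all below the lowest control. Cox7a1 changed by -1.19 ± 0.42 at day 3 (limma adjusted p = 0.0223) and by -2.45 ± 0.49 at day 7 (adjusted p = 0.00058). The day 3 call ended without day 3 graft 1 (-1.09, adjusted p = 0.051) and without both high-muscle libraries (-0.96, adjusted p = 0.0937). Between day 7 and day 3 the change was -1.26 ± 0.53 (adjusted p = 0.19), and it passed when only the grafts were fitted (-1.28, adjusted p = 0.0244).

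Elovl3 (ENSMUSG00000038754, mm10 chromosome 19, 46131897 to 46135694), an elongase of very long chain fatty acids that is induced in brown fat by cold, was at 9.11, 2.50, 0.949, 0.842 and 9.47 CPM in controls 1 to 5. In the day 3 grafts it had 2 counts in graft 1 and none in the other 4, each of which allows 0.107 to 0.127 CPM. In the day 7 grafts it had 1, 0, 3, 1 and 7 counts. Elovl3 thus had 458 control counts, 2 from day 3 grafts and 12 from day 7 grafts. The control level was 290 times that of the day 3 grafts (exact 95% counting interval 79.8 to 2401) and 50.9 times that of the day 7 grafts (28.9 to 99.2). The gene passed the filter only through its 5 controls, so it had to differ, and its calls (limma adjusted p = 0.000255 and 0.00106) are given only as a description. The log2 changes of -6.70 ± 1.20 and -5.26 ± 1.14 also depend on the offset that voom adds to low counts. Elovl3 was not tested whenever a control was left out.

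Dio2 (ENSMUSG00000007682, mm10 chromosome 12, 90724552 to 90738438), the type 2 deiodinase that converts thyroxine to the active hormone, was at 9.004, 9.17, 4.20, 4.25 and 17.9 CPM in controls 1 to 5. It was at 6.00, 3.27, 1.31, 9.51 and 7.20 CPM in the day 3 grafts and at 4.87, 5.27, 3.09, 3.12 and 3.50 CPM in the day 7 grafts. The groups overlapped throughout. Its changes were -0.73 ± 0.49 (limma adjusted p = 0.21) and -0.95 ± 0.50 (adjusted p = 0.11). With sample quality weights the day 7 change of Dio2 passed (-1.21, limma adjusted p = 0.0112), as it did with the replicate number as a block (-1.06, adjusted p = 0.0384). Dio3, the deiodinase that inactivates thyroid hormone, rose from 0.083 ± 0.118 CPM (SD, n = 5) in the controls to 0.612 ± 0.342 at day 3 and 3.55 ± 1.44 at day 7. It had 9, 82 and 480 counts in the 3 groups, and its changes were 3.01 ± 0.85 (limma adjusted p = 0.00682) and 5.51 ± 0.78 (adjusted p = 2.94e-05). The highest Dio3 control, at 0.284 CPM, lay below the filter threshold of 0.3894 CPM. Dio3 was thus tested only through the grafts, where it was high, and its calls are given only as a description. The day 3 rise of Dio3 did not pass on log2(TPM + 1) (0.46, adjusted p = 0.0694). Dio1 was not tested, with 3, 1 and 0 counts.

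Ppargc1a (ENSMUSG00000029167, mm10 chromosome 5, 51454250 to 51567726) encodes PGC-1 alpha, the cold-inducible coactivator of mitochondrial biogenesis and of Ucp1. It was at 21.6, 20.4, 12.2, 21.9 and 8.90 CPM in controls 1 to 5. The day 3 grafts held 0.560, 0.890, 0.717, 0.252 and 1.33 CPM and the day 7 grafts 0.299, 0.534, 0.75, 0.472 and 0.113 CPM. The lowest control was several times the highest graft. Ppargc1a changed by -4.56 ± 0.49 at day 3 (limma adjusted p = 3.04e-06) and by -5.34 ± 0.55 at day 7 (adjusted p = 1.92e-06).

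Ppargc1b (ENSMUSG00000033871, mm10 chromosome 18, 61298136 to 61400431), the related coactivator PGC-1 beta, was at 8.01, 8.41, 6.91, 6.23 and 4.31 CPM in controls 1 to 5. It was at 1.72, 1.14, 0.802, 0.684 and 1.10 CPM in the day 3 grafts and at 1.497, 0.900, 1.02, 1.13 and 1.02 CPM in the day 7 grafts. The graft groups covered nearly the same range, and both lay below every control. The changes were -2.64 ± 0.26 (limma adjusted p = 1.57e-06) and -2.57 ± 0.26 (adjusted p = 1.5e-06). Pprc1, the third gene of the family, rose from 38.7 ± 11.1 to 53.4 ± 5.25 and 54.2 ± 6.56 CPM (SD, n = 5; 0.53 ± 0.19, adjusted p = 0.0285, and 0.55 ± 0.19, adjusted p = 0.0238). Scaled by library totals, Pprc1 did not pass (0.59, adjusted p = 0.0739, and 0.65, adjusted p = 0.0511).

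**Figure D2:**
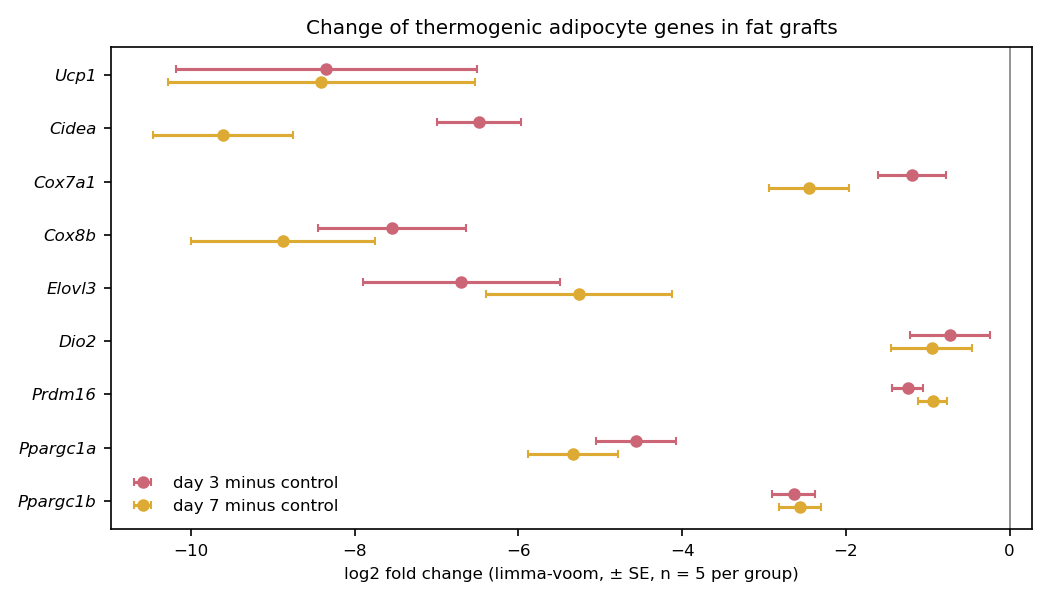
Log2 fold change of each gene in the day 3 and day 7 grafts relative to the controls, as points with bars of ± 1 SE from the limma-voom fit (n = 5 per group). The points run from -9.61 (Cidea, day 7) to -0.73 (Dio2, day 3), and Ucp1 has the widest bars.

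Prdm16 (ENSMUSG00000039410, mm10 chromosome 4, 154316125 to 154636873), the zinc finger coregulator of brown and beige adipocyte identity, gave different answers on the 2 scales of the deposited data. By counts it was at 12.2, 12.4, 10.2, 11.03 and 8.28 CPM in controls 1 to 5, at 3.68, 5.30, 4.64, 4.39 and 4.49 CPM in the day 3 grafts and at 6.77, 3.97, 7.26, 6.19 and 4.33 CPM in the day 7 grafts. No graft reached the lowest control. Prdm16 changed by -1.25 ± 0.19 at day 3 (limma adjusted p = 6.43e-05) and by -0.94 ± 0.18 at day 7 (adjusted p = 0.000433). In TPM, which divides by transcript length, the means were 2.05 ± 0.70 in control tissue, 1.24 ± 0.32 at day 3 and 2.43 ± 1.14 at day 7 (SD, n = 5). On log2(TPM + 1) the changes were -0.42 (adjusted p = 0.113) and 0.14 (adjusted p = 0.603), so the fall was not called at day 3 and turned its sign at day 7.

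The length that the deposited values imply for Prdm16, from its counts and RPKM, moved with the group. It was 4.92 to 7.62 kb (median 6.12 kb) in control tissue, 2.94 to 6.73 kb (median 5.33 kb) at day 3 and 2.39 to 5.10 kb (median 3.70 kb) at day 7. Ppargc1a also varied, from 5.23 to 6.22 kb in the controls to 1.70 to 5.96 kb at day 3 and 3.60 to 6.24 kb at day 7. Dio2 stayed at 5.54 to 5.68 kb in every library. The part of the implied length in the Prdm16 result was not tested. The implied lengths of Cox8b (0.113 to 0.137 kb) and Cox7a1 (0.140 to 0.172 kb) were short, so their TPM was high for their counts. Implied lengths are derived from counts and RPKM and need not equal the full length of a transcript.

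**Figure D3:**
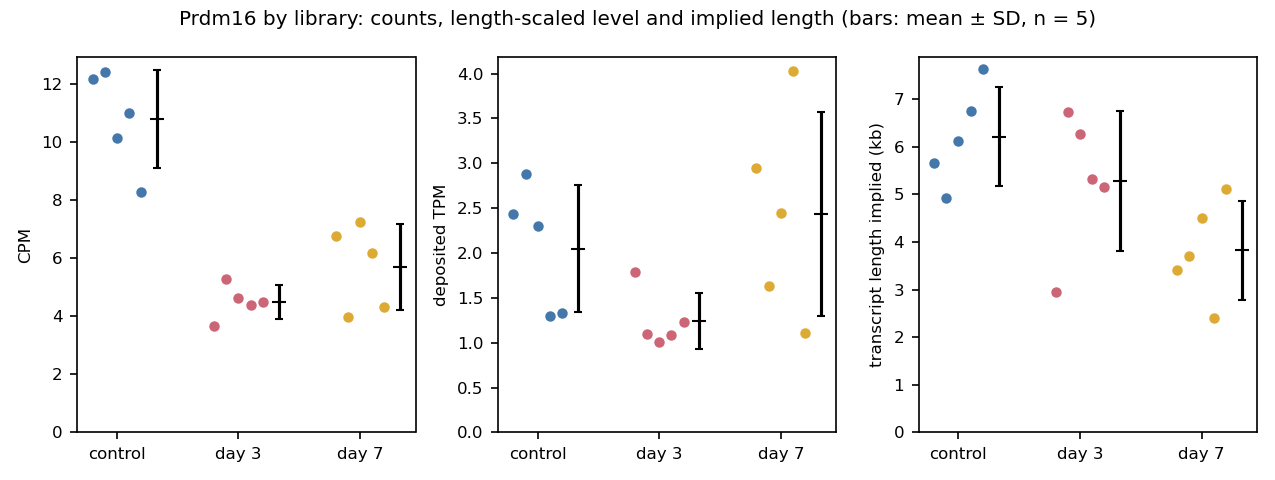
Prdm16 in every library as scaled CPM, as deposited TPM and as the length in kb implied by counts and RPKM, with bars of mean ± SD (n = 5). The day 7 grafts lie below the controls in CPM, overlap them in TPM and reach down to 2.39 kb in implied length.

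Per length, the control levels ran in the order Cox8b (642 ± 212 TPM), Cidea (253 ± 93.4), Cox7a1 (113 ± 78.9), Ucp1 (102 ± 98.6), Elovl3 (3.45 ± 3.38), Ppargc1a (3.27 ± 1.04), Ppargc1b (2.25 ± 0.695), Prdm16 (2.05 ± 0.704) and Dio2 (1.85 ± 1.27; mean ± SD, n = 5). In this order Cox8b stood above Cidea by more than their SDs, and every other pair of neighbours overlapped in mean ± SD. Cox8b, Cidea and Cox7a1 each stood above the 5 genes from Elovl3 to Dio2, and Ucp1 did not by this measure, since its SD was close to its mean. By single libraries Ucp1 did stand above them, with its lowest control at 10.25 TPM. The highest controls were 7.49 TPM for Elovl3, 4.68 for Ppargc1a, 2.82 for Ppargc1b, 2.88 for Prdm16 and 3.91 for Dio2. In TPM, and with the short implied length of Cox7a1, this gene had the highest level of the members in the day 3 grafts at 46.8 TPM, and in the day 7 grafts at 22.9 TPM, with Cox8b at 6.48 and 2.31 TPM and Cidea at 3.81 and 0.504 TPM. The order rests on the lengths behind the deposited TPM. In mean CPM Cox7a1 was at 5.59 at day 3 beside 5.46 for Dio2, and at 2.43 at day 7 below Prdm16 (5.70) and Dio2 (3.97).

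Several members have a close relative that is expressed more widely, and the ratio of the pair compares both within a library. Of 14 listed relatives 13 were tested, and in each comparison with the controls 5 rose, 6 fell and 2 were not called, with median changes of -0.23 and -0.09. Among all tested genes 30.1% rose and 30.2% fell at day 3, and 32.3% and 28.4% at day 7, and the counts are not read. Ucp2, the mitochondrial carrier of immune and many other cells, rose from 193 ± 53.6 to 289 ± 52.9 and 349 ± 58.5 CPM (SD, n = 5; 0.61 ± 0.19, limma adjusted p = 0.0107, and 0.88 ± 0.19, adjusted p = 0.00097). Its day 3 rise did not pass without the high-muscle libraries (0.54, adjusted p = 0.0545). Ucp3, a homolog of muscle and brown fat, fell from 52.5 ± 23.1 to 2.64 ± 1.39 and 1.09 ± 0.419 CPM (-4.37 ± 0.49 and -5.51 ± 0.58). Macrophage marker sums rose in the same libraries as Ucp2, and their part in it was not tested.

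The log2 ratio of Ucp1 to Ucp2 (TPM + 0.5) was -0.88 ± 1.72 in control tissue, -8.39 ± 0.44 at day 3 and -8.58 ± 0.99 at day 7 (SD, n = 5). Graft ratios with Ucp1 near 0 depend on the pseudocount. The differences from the controls were -7.51 and -7.70 (exact two-sided permutation test, p = 0.00794, the smallest that 5 against 5 can give, adjusted p = 0.0139 over 21 tests of pairs). Cidea fell more than Cidec, a lipid droplet protein of white adipocytes, which itself went from 1381 ± 783 to 174 ± 88.7 and 44.7 ± 16.8 CPM. Their log2 ratio was -2.17 ± 0.58 in control tissue, -5.49 ± 0.68 at day 3 and -5.83 ± 0.94 at day 7, with differences of -3.32 and -3.66 (exact permutation test, adjusted p = 0.0139 for each). Between the graft groups this ratio differed by -0.34 (exact permutation test, adjusted p = 0.542), a value that ran from -1.11 with a pseudocount of 0.1 TPM to 0.11 with 1 TPM (exact permutation test, adjusted p = 0.167 and 0.794), and it is not read. Cidea in most day 7 grafts was below the pseudocount, and its day 7 difference from the controls ran from -4.61 with 0.1 TPM to -3.03 with 1 TPM.

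Cox8b also fell more than Cox8a, its ubiquitous counterpart, which went from 167 ± 75.8 to 58.9 ± 13.5 and 47.2 ± 12.9 CPM (SD, n = 5; -1.43 ± 0.26 and -1.75 ± 0.26). The log2 ratio of Cox8b to Cox8a was 0.11 ± 0.46 in control tissue, -5.72 ± 1.81 at day 3 and -6.85 ± 1.33 at day 7, with differences of -5.83 and -6.96 (exact permutation test, adjusted p = 0.0139 for each). For Cox7a1 and the ubiquitous Cox7a2 the day 3 difference was -0.45 (exact permutation test, adjusted p = 0.361). At day 7 it was -1.58, and between day 7 and day 3 it was -1.12 (exact permutation test, adjusted p = 0.0139 for each). Cox7a2 itself went from 163 ± 60.0 to 87.0 ± 5.68 and 83.2 ± 10.1 CPM, and Cox7a2l was not called.

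**Figure D4:**
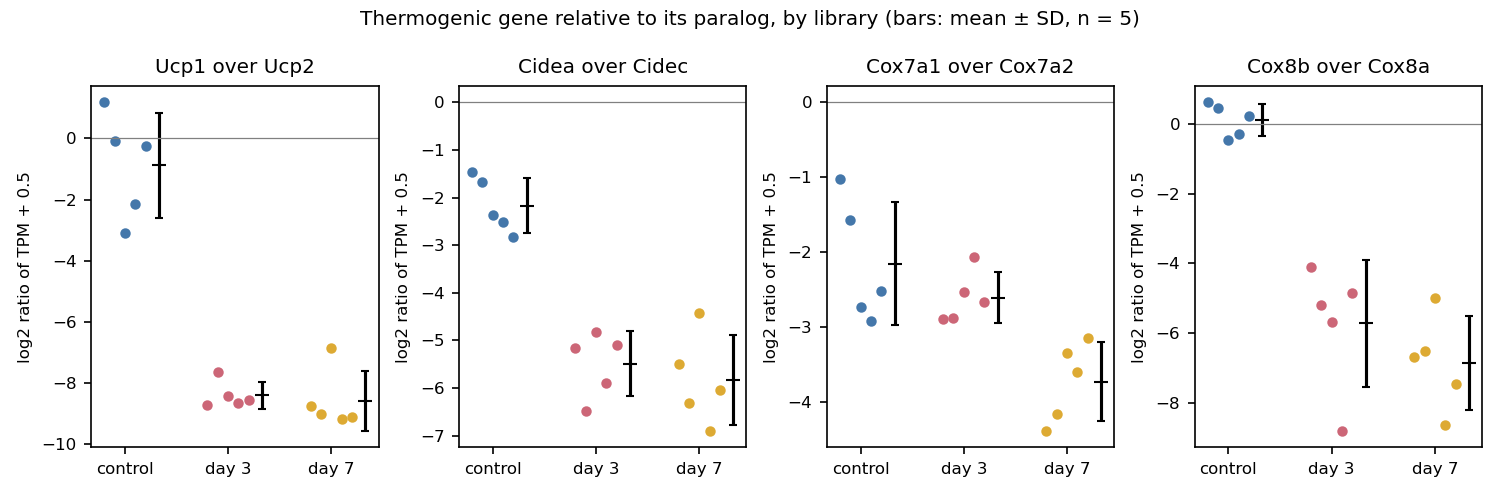
Log2 ratio of a thermogenic gene to its relative in every library, from deposited TPM with a pseudocount of 0.5, with bars of mean ± SD (n = 5). For Ucp1, Cidea and Cox8b every graft lies below every control, and for Cox7a1 this holds at day 7 only.

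Prdm16 fell by counts while its relative Mecom rose from 8.30 ± 1.08 to 15.3 ± 5.23 and 19.5 ± 6.68 CPM (SD, n = 5; 0.83 ± 0.32, limma adjusted p = 0.0349, and 1.14 ± 0.31, adjusted p = 0.00541). The day 3 rise of Mecom did not pass with upper quartile scaling (0.75, adjusted p = 0.0546). Per length the log2 ratio of Prdm16 to Mecom differed from the controls by -1.65 and -1.29 (exact permutation test, adjusted p = 0.0139 for each). The ratio of Ppargc1a to Ppargc1b was lower than in the controls, with differences of -0.62 at day 3 (exact permutation test, adjusted p = 0.0385) and -1.10 at day 7 (adjusted p = 0.0139). Both coactivators were at or below the pseudocount in most grafts, and with 0.1 TPM the day 3 difference of Ppargc1a over Ppargc1b was -0.90 (exact permutation test, adjusted p = 0.0513). The day 3 difference was also not called without control 1, 2 or 4 or without day 3 graft 1, 2, 4 or 5 (exact permutation test, adjusted p = 0.0513 to 0.0769), and none of the other settings lost the day 7 call. Without control 2 and day 3 graft 1, which leaves 4 libraries against 4 at day 3, the differences of Ucp1 over Ucp2 (-7.23), Cidea over Cidec (-3.28), Cox8b over Cox8a (-6.14) and Prdm16 over Mecom (-1.80) had an adjusted p = 0.05 by the exact permutation test, and that of Ppargc1a over Ppargc1b (-0.61) an adjusted p = 0.129. The day 3 call of Ppargc1a over Ppargc1b was thus lost in 9 of 14 other settings. Over all 14 the difference ran from -1.59 to -0.49 and did not change its sign.

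Among the elongases Elovl6, a lipogenic enzyme, fell from 432 ± 224 to 15.8 ± 2.61 and 13.8 ± 1.48 CPM (SD, n = 5; -4.55 ± 0.37 and -4.72 ± 0.38), as did Elovl5 by smaller amounts (-0.80 and -0.81). Elovl1, which acts on long saturated chains in many tissues, rose from 40.0 ± 4.96 to 80.4 ± 9.07 and 85.9 ± 3.18 CPM (1.01 ± 0.10 and 1.11 ± 0.10). The ratio of Elovl3 to Elovl6 was not called in either comparison (exact permutation test, adjusted p = 0.178 and 0.143), and Elovl3 lay below the pseudocount in every graft. Without control 5 both differences were called (2.35 and 2.61, exact permutation test, adjusted p = 0.0128 for each), and with Elovl3 below the pseudocount they are not read. Cideb, the liver form of the CIDE family, was under 1 CPM on average in each group and was not called.

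To compare the members with the loss of adipocyte transcripts, each was set against the mean log2(TPM + 0.5) of Adipoq, Plin1, Plin4, Cidec and Lipe in the same library. That reference changed by -2.06 at day 3 and by -3.81 at day 7 (exact two-sided permutation test, p = 0.00794 for each). Relative to it Cidea changed by -3.91 and -4.22, and Cox8b by -4.95 and -4.51 (exact two-sided permutation test, adjusted p = 0.0195 for each over 27 tests). The day 7 value of Cidea, with most grafts below the pseudocount, ran from -5.16 with 0.1 TPM to -3.59 with 1 TPM.

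Prdm16 at both times and Dio2 at day 7 stood higher relative to the adipocyte reference than they did in the controls. A gene with unchanged TPM would also stand higher, since the reference itself changed by -2.06 at day 3 and -3.81 at day 7. Mean TPM in the 3 groups was 2.05, 1.24 and 2.43 for Prdm16 and 1.85, 1.35 and 1.06 for Dio2. The differences below are therefore not read as a rise or as a trait of these genes. Prdm16 was higher relative to the reference by 1.54 at day 3 and 3.96 at day 7, and by 2.42 at day 7 against day 3 (exact permutation test, adjusted p = 0.0195 for each). With a pseudocount of 0.1 TPM the day 3 difference of Prdm16 was 1.42 (exact permutation test, adjusted p = 0.0584). Dio2 was higher relative to the reference by 1.75 at day 3 (exact permutation test, adjusted p = 0.0714) and by 3.35 at day 7 (adjusted p = 0.0195). The day 3 difference of Dio2 passed with Adipoq alone as the reference (1.87, exact permutation test, adjusted p = 0.0402). Cox7a1 differed from the reference by 1.02 at day 3 (exact permutation test, adjusted p = 0.173) and by 1.71 at day 7 (adjusted p = 0.0429). The day 7 difference of Cox7a1 did not pass without control 2, 3, 4 or 5 or without any single day 7 graft (1.42 to 1.90, exact permutation test, adjusted p = 0.0536 to 0.0756). Ucp1, Elovl3, Ppargc1a and Ppargc1b were at or below the pseudocount in most or all grafts, so their differences from the reference are not read. Macrophage and progenitor marker sums rose in the grafts, and their part in the Prdm16 and Dio2 values was not tested.

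**Figure D5:**
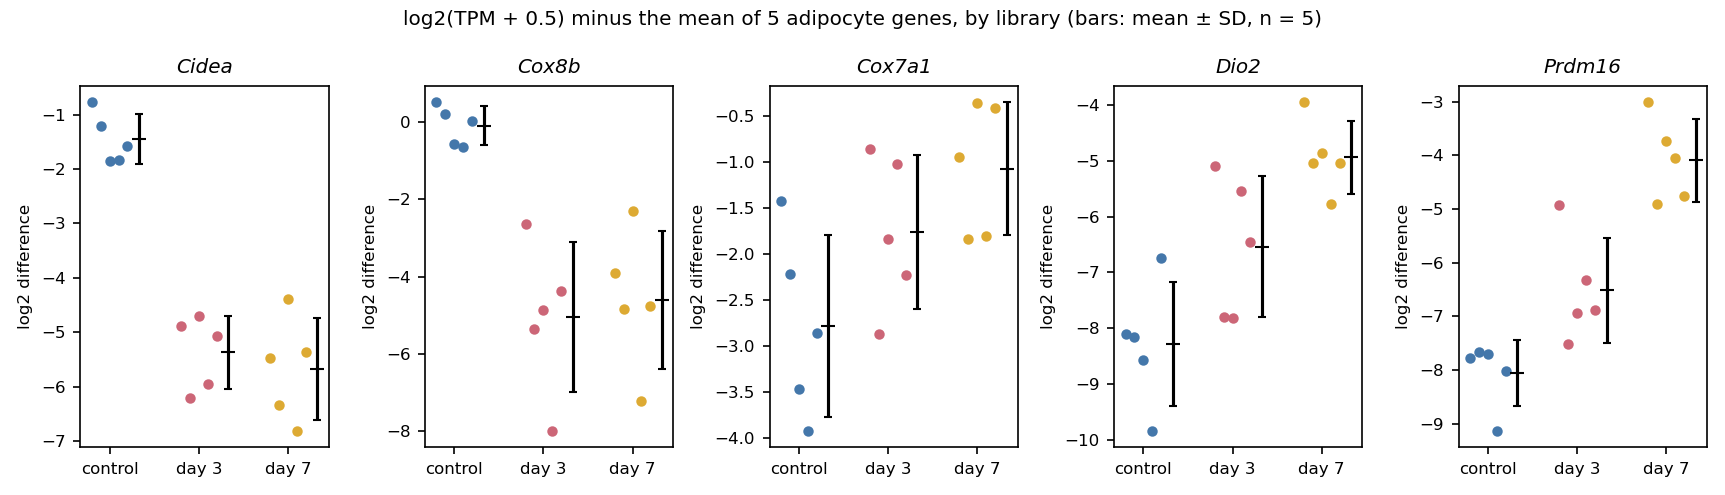
Log2(TPM + 0.5) of 5 members minus the mean of 5 adipocyte genes in every library, with bars of mean ± SD (n = 5). Cidea and Cox8b in the grafts lie below all controls, while Prdm16 lies above all controls at both times and Dio2 at day 7.

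Signalling genes upstream of the members fell in part. Of 12 adrenergic and cyclic AMP genes 6 fell and 1 rose at day 3 (median -0.70), and 8 fell and 1 rose at day 7 (median -0.97). Over all tested genes 30.2% were lower and 30.1% higher at day 3, and 28.4% and 32.3% at day 7. Adrb3, the main beta receptor of rodent adipocytes, was at 199.5 ± 161 CPM in control tissue, 9.44 ± 8.31 at day 3 and 1.16 ± 0.572 at day 7 (SD, n = 5), with changes of -4.49 ± 0.64 (limma adjusted p = 3.3e-05) and -7.16 ± 0.96 (adjusted p = 1.93e-05). Adrb1 fell at day 7 (-3.77 ± 0.97, adjusted p = 0.00385) and was not called at day 3 (-0.67 ± 0.70, adjusted p = 0.424). Prkar2b, the protein kinase A subunit of fat, fell (-2.84 and -3.50), and so did Pde3b, a phosphodiesterase that ends the cyclic AMP signal (-2.11 at day 3). Mapk14, the p38 kinase, was the gene that rose, by 0.22 and 0.25 (adjusted p = 0.0454 and 0.0229), and neither rise passed with upper quartile scaling (adjusted p = 0.156 and 0.052).

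Among 21 transcriptional regulators of thermogenic genes 10 fell, 5 rose and 6 were not called in each comparison with the controls, with medians of -0.28 and -0.44. The shares over all tested genes were 30.2% lower and 30.1% higher at day 3, and 28.4% and 32.3% at day 7. Ppara, the fatty acid sensing receptor of oxidative tissues, went from 10.95 ± 5.22 to 0.540 ± 0.419 and 0.223 ± 0.030 CPM (SD, n = 5; -4.46 ± 0.55, limma adjusted p = 9.49e-06, and -5.34 ± 0.62, adjusted p = 5.01e-06). Esrrg, an estrogen-related receptor that partners with PGC-1, fell (-3.58 and -4.34), as did Irf4, a fasting-induced partner of PGC-1 alpha that B cells also express (-3.02 and -3.51). The day 7 grafts of Ppara and Esrrg reached only 0.262 and 0.18 CPM, and their lowest day 3 grafts were at 0.12 and 0.072 CPM. Ppara and Esrrg thus passed the filter only with the help of the controls, where they were high. Their calls are given only as a description. Lymphocyte and lymph node markers (8 genes) summed to 120 to 1765 CPM in control tissue, 9.75 to 50.03 CPM at day 3 and 6.19 to 136 CPM at day 7, and their part in the Irf4 fall was not tested. In the other direction Zfp516, a zinc finger activator of Ucp1, rose from 17.3 ± 0.830 to 38.5 ± 6.91 and 40.5 ± 3.64 CPM (1.14 ± 0.13, adjusted p = 4.71e-06, and 1.22 ± 0.13, adjusted p = 2.19e-06). Cebpb, a cyclic AMP and inflammation induced factor, rose by 1.78 and 0.88, Hlx by 1.20 at day 3 and Klf11 by 0.67 at day 7. The day 7 rise of Cebpb did not pass with median of ratios scaling (0.84, adjusted p = 0.0557), nor that of Klf11 without control 1 or control 5 (0.50, adjusted p = 0.0555, and 0.52, adjusted p = 0.0536). Ebf2, the early brown fat factor, was not called (-0.28 and -0.44).

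Of 12 repressors of the program 5 fell and 2 rose at day 3, and 6 fell and 2 rose at day 7, with medians of -0.14 and -0.26. These counts stand beside 30.2% lower and 30.1% higher of all tested genes at day 3, and 28.4% and 32.3% at day 7. They are not read as a trait of the list. Nrip1, a corepressor of Ucp1, fell (-1.10 and -1.41), as did Zfp423, a factor that holds white identity (-1.05 at both times), and Nr1h3, the liver X receptor alpha (-0.98 and -1.63). The day 3 fall of Zfp423 did not pass on log2(TPM + 1) (-0.23, adjusted p = 0.33). Trpv4, a calcium channel reported to restrain the program, rose by 1.09 and 1.503. Trpv4 at day 3 did not pass without the high-muscle libraries (0.89, limma adjusted p = 0.0663).

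Other genes enriched in thermogenic adipocytes gave the largest median fall among the pathway lists. Of 22 genes 20 were tested, of which 15 fell and 2 rose at day 3 (median -2.10), and 14 fell and 1 rose at day 7 (median -2.66). Of all tested genes 30.2% fell and 30.1% rose at day 3, and 28.4% and 32.3% at day 7. The adipocyte markers, which are not a pathway list, fell further. Their medians were -2.385 at day 3 and -4.236 at day 7, with all 10 genes lower each time. The fall of the list is thus not read as particular to thermogenic genes. Slc27a2, a fatty acid transport protein, had 606, 5 and 3 counts in the 3 groups, and the control level was 153 times that of the day 3 grafts (exact 95% counting interval 65.4 to 474) and 269 times that of the day 7 grafts (91.7 to 1310). Ntrk3, a neurotrophin receptor, went from 61.5 ± 37.5 to 1.58 ± 0.828 and 0.545 ± 0.148 CPM (SD, n = 5; -5.08 ± 0.84 and -6.45 ± 1.05). Otop1, a proton channel of brown fat, fell (-6.51 at day 7), as did Cpn2 (-4.75 at day 3). Eva1b rose from 1.81 ± 0.637 to 3.14 ± 0.432 and 3.46 ± 0.503 CPM (0.86 and 1.00), and Acsl5, an acyl-CoA synthetase, rose by 0.33 at day 3 but not without the high-muscle libraries (0.25, limma adjusted p = 0.0574). Zic1, a marker of classical brown fat, was at 0 to 0.084 CPM in the controls and was not tested.

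Beige adipocyte markers were called in both directions. Beside shares of 30.1% higher and 30.2% lower over all tested genes at day 3, and 32.3% and 28.4% at day 7, the counts are not read as a trait of the list. Of 11 genes 5 fell and 1 rose at day 3 (median -0.72), and 4 fell and 2 rose at day 7 (median -1.01). Tbx1 went from 1.60 ± 0.382 to 0.428 ± 0.376 and 0.378 ± 0.248 CPM (SD, n = 5; -2.35 ± 0.57, limma adjusted p = 0.00265, and -2.24 ± 0.56, adjusted p = 0.00299). Slc27a1, a fatty acid transporter, fell (-2.10 and -2.68), as did Hoxc8, a positional factor (-2.06 at day 3), and Fbxo31 (-1.56 at day 7). Tnfrsf9, which is also the costimulatory receptor CD137 of activated immune cells, rose from 7.71 ± 4.74 to 52.8 ± 24.98 and 36.8 ± 20.2 CPM (3.01 ± 0.74, adjusted p = 0.00279, and 2.34 ± 0.75, adjusted p = 0.0136). Tmem26 rose by 1.23 at day 7.

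Genes of heat production without Ucp1, the creatine and calcium cycles, were called in both directions, with day 3 shares near those of all tested genes (30.1% higher and 30.2% lower) and no reading taken from the counts (10 of 12 tested; 3 rose and 3 fell at day 3, median -0.31, and 4 rose and 2 fell at day 7, median -0.18). Slc6a8, the creatine transporter, rose from 11.7 ± 4.54 to 55.4 ± 5.11 and 100.3 ± 10.3 CPM (SD, n = 5; 2.33 ± 0.21, limma adjusted p = 7.63e-07, and 3.19 ± 0.21, adjusted p = 7.66e-08). Ckb, the brain type creatine kinase, rose by 1.47 and 1.45, Atp2a2, the widespread calcium pump of the endoplasmic reticulum, by 0.64 at day 3, and Gatm, which makes the creatine precursor, by 1.26 at day 7. Alpl, an alkaline phosphatase of the creatine cycle, fell by 2.38 at day 7. Atp2a1, Ckmt2 and Sln, which skeletal muscle expresses strongly, fell at day 3 (-6.50, -5.26 and -3.87, adjusted p = 0.0486, 0.0146 and 0.0462), and Ckmt2 at day 7 (-4.19, adjusted p = 0.035). These calls of Atp2a1, Ckmt2 and Sln did not pass with sample quality weights (limma adjusted p = 0.166, 0.0819 and 0.0956, and 0.119 for Ckmt2 at day 7).

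Of the secreted factors linked to thermogenic fat 7 of 11 tested were higher and 2 lower at day 3 (median 1.36; 30.1% and 30.2% of all tested genes), and 5 were higher and 3 lower at day 7 (median 0.93; 32.3% and 28.4%). Nrg4, a secreted ligand of brown and white adipocytes, was one that fell, from 79.1 ± 31.1 to 7.83 ± 2.09 and 4.01 ± 2.51 CPM (SD, n = 5; -3.27 ± 0.32, limma adjusted p = 1.44e-06, and -4.39 ± 0.38, adjusted p = 4.27e-07). Bmp7, an inducer of brown adipogenesis, fell (-2.08 and -3.78), and Vegfa, the endothelial growth factor, fell at day 7 (-1.29). Il6, an inflammatory cytokine that many cells make, rose from 0.788 ± 1.31 to 32.9 ± 22.1 and 7.03 ± 2.20 CPM (6.11 ± 1.09, adjusted p = 0.000244, and 4.12 ± 1.14, adjusted p = 0.0059). The Il6 controls did not all reach the filter threshold, with the lowest at 0.174 CPM. Il6 thus passed the filter only with the help of the grafts, where it was high, and its calls are given only as a description. Gdf15, a stress cytokine, had 4 control counts, 186 in the day 3 grafts and 243 in the day 7 grafts (4.77 ± 0.52 and 5.03 ± 0.52). Its controls, at 0 to 0.084 CPM, were all below the filter threshold. Gdf15 was thus tested only through the grafts, and its calls are given only as a description. Metrnl, a cytokine of fat, muscle and macrophages, rose by 3.58 at day 3, and Slit2, a secreted guidance protein, by 3.15 at day 7.

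Because Ucp1 varied so much among libraries of a group, the genes whose levels moved most like it were listed, by the Pearson correlation of log2 deviations from group means over 15 libraries and 14058 genes. After predicted genes and pseudogenes were left out, the 5 highest were Elovl3 (0.858), Ighg1 (0.844), Angptl8 (0.789), Rev1 (0.777) and Lenep (0.773). The deviations were taken on log2(CPM + 1), where the Ucp1 grafts, at 0 to 2.25 CPM, differ little beside controls of 17.9 to 313 CPM. The correlations thus rest mostly on the 5 controls. The libraries share depth and tissue composition, and the values are a description. Elovl3 and Ucp1 were both high in controls 1 and 5 and both low in controls 3 and 4. Angptl8, an insulin-induced secreted protein of fat and liver, was at 28.6, 14.7, 8.59, 9.26 and 13.9 CPM in controls 1 to 5. Ighg1, an antibody gene, had its highest control levels in libraries 1 and 5 as well, at 9.37 and 8.14 CPM, and Rev1 and Lenep were not called in any comparison. The other members' deviations followed Ucp1 less closely, at 0.581 for Cox7a1, 0.378 for Cox8b, 0.372 for Dio2, 0.237 for Cidea, 0.216 for Prdm16, 0.092 for Ppargc1a and 0.028 for Ppargc1b.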

How the data were processed

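Poly(A) libraries of 15 mouse adipose samples, 5 per group, were made with strand marking and read as pairs of 151 bp, as the protocols in the labels state. Cutadapt 2.8, STAR 2.7.1a, RSEM 1.3.1 and mm10 appear in the submitters' processing notes, with no roles. Nothing used here names the annotation release. The authors deposited a whole-number count for each gene, with no scaling according to the file headers. The deposited RPKM values had been scaled by the authors for length and depth, per the file headers, and served here only to derive implied lengths. TPM, which the authors deposited with a common total per sample, served for levels between genes, ratios and an alternative fit.

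Genes needed at least 0.3894 CPM (10 counts at the median library) in 5 samples and 15 counts in all. Counts scaled by trimmed means of M-values (factors 0.746 to 1.14) went into voom of limma 3.58.1 (R 4.3.3), with 15 samples in 1 fit of 3 group means. Since the deposited counts carry digit separators, their unit was recorded as other, and limma-voom was used in place of a negative binomial test. Ratios used exact two-sided permutation tests. The fit was tested on simulated counts. For repeated symbols the entry with the most counts was taken. The matrix was read with the data.table package, version 1.17.8, and plots were made with matplotlib 3.10.9.

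The members and the gene lists were chosen with earlier results of these data known. Named genes are all members, all listed relatives, up to 3 called genes per pathway list, direction and comparison with the controls with the largest change and at least 1 CPM in a group, and the 5 genes most like Ucp1. The result of 1 gene that this rule names is not reported here. Alternatives changed the scaling, the filter, the samples, the replicate block, the pseudocount and the reference genes. Those added after seeing the data left out libraries that stood apart.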

Additional observations from a re-analysis of the deposited data

Results flagged for a closer look

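Of 27 groups of 5 libraries (9 genes in 3 groups), 3 had 1 library far from the others by the gap between it and its nearest neighbour relative to the group's range, which chance gives for about 1 in 20 groups of normally distributed values. Ucp1 was at 2.25 CPM in day 7 graft 3 and at 0 to 0.263 CPM in the other day 7 grafts. Cox8b was at 0.57 CPM in the same graft and at 0 to 0.133 CPM in the others. Day 7 graft 3 also had the highest skeletal muscle marker sum of the day 7 grafts (318 CPM) and the highest Cidea and Ppargc1a levels of them (0.78 and 0.75 CPM). Elovl3 was at 0.08005 CPM in day 3 graft 1, which is 2 counts, and at 0 in the other day 3 grafts. With 4 of 5 libraries at 0 this gap equals the range by construction, so the chance rate does not apply to it.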

How the results depend on the processing

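Of 706 values of the members under other settings, 682 kept their direction and their side of the threshold, 4 lost a call, 7 gained one and 13 changed sign. The sign changes were in differences between the graft groups that had not passed, except for Prdm16 at day 7. For the other named genes 2637 of 2774 values kept both, and for the ratios 615 of 699. At day 3 and at day 7 the members lower than the controls numbered 6 to 9 in every setting run and none was higher; the 6 at day 3, without control 2 and day 3 graft 1, leaves out Elovl3, which was untested with 4 controls, and Cox7a1. Day 3 graft 1 and day 7 graft 5 were left out together as a choice made with earlier results known.

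Between day 7 and day 3 the number of genes called moved from 784 to 3661 with sample quality weights, to 1504 without day 3 graft 1 and day 7 graft 5, to 1400 with only the groups compared, and to between 318 (without day 7 graft 2) and 1525 (without control 4) when single libraries were left out. Members called lower there were 1 (Cidea) with limma-trend on TPM, with limma-trend on CPM and with quality weights and 2 (Cidea and Cox7a1) with only the groups compared. The cause was not tested.

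The labels share replicate numbers between groups and do not say whether these pair the samples. Correlations of deviations ran from -0.183 to 0.341 over 15 same-number pairs and 5 exceeded 0.1. Pairs of different numbers were not compared, so these values cannot decide whether the samples are paired. With the replicate block 9725, 9724 and 659 genes were called in the 3 comparisons and 8, 9 and 0 members were lower, Dio2 at day 7 being added (-1.06, adjusted p = 0.0384). Under the block Ucp1 between the grafts was 0.24 and Lenep at day 3 was -0.42.

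Signs changed as follows, with no cause tested. On log2(TPM + 1), Prdm16 at day 7 was 0.14, Ucp1 between the grafts 0.18, Cox7a2l 0.06 at day 3 and 0.40 at day 7, Rev1 0.10 and 0.25, Lenep at day 3 -0.11 and Cideb at day 7 0.079. On log2(CPM + 1), Ucp1 between the grafts was 0.16 and Lenep at day 3 -0.20. With library totals Cideb, Cox7a2l and Rev1 at day 7 were 0.011, 0.072 and 0.005, and Cox7a2l was 0.033 with no filter. With quality weights Cideb and Lenep at day 3 were -0.24 and -1.35. With a pseudocount of 0.1 TPM, Elovl3 over Elovl6 at day 3 was -0.16, and relative to the adipocyte reference Ppargc1a at day 7 was -0.032 and Ppargc1b at day 3 -0.055. With 1 TPM, Cidea over Cidec between the grafts was 0.11, and relative to the reference Cidea between the grafts was 0.13, Elovl3 at day 3 0.29 and Ppargc1a at day 3 0.41. With CPM ratios Cidea over Cidec, Prdm16 over Mecom and Cidea relative to the reference between the grafts were 0.076, -0.033 and 0.062. With Adipoq alone Ppargc1a at day 3 was 0.032.

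Leaving out single libraries gave, between the grafts, -1.02 to 0.63 for Ucp1, -0.085 to 0.25 for Ppargc1b, -0.64 to 0.047 for Dio2, -0.63 to 0.002 for Ucp1 over Ucp2 and -0.30 to 1.09 for Cox8b relative to the reference. At day 3 it gave -0.44 to 0.12 for Ppargc1a and -0.91 to 0.12 for Elovl3 relative to the reference, -0.53 to 1.495 for Lenep and -0.062 to 0.41 for Cideb, and at day 7 -0.30 to 0.17 for Cideb and -0.082 to 0.033 for Cox7a2l. Elovl3, Ucp1 and Cox8b had 0 to 23 counts in each graft, apart from 75 of Ucp1 in day 7 graft 3, which limits the size of their falls and of any difference between the graft groups.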
